A study of Mus musculus with 12 samples.

Results

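The interleukin-12 family is a small group of cytokines, each built from 2 protein chains, and 7 genes that encode its chains and a pair of its receptor chains were followed here. The members were chosen by name: the subunit genes Il12a, Il12b, Il23a, Il27 and Ebi3 and the receptor genes Il12rb1 and Il12rb2. Probes were named through the transcript accession printed in each array file, and 1 probe was matched to each of the 7 genes, among 24232 named genes and 35405 named probes. The 12 single-colour mouse arrays measured RNA from dendritic cells (DCs) grown from bone marrow for 7 days with GM-CSF and IL-4 and then given lipopolysaccharide (LPS), the bacterial cell wall component, at 1 µg/mL for 24 h. All 4 groups received LPS, so no resting cells were compared, and each group had 3 arrays, called replicates A, B and C. The Young group came from untreated mice labelled 2 months old. The Young-Abx group came from mice of the same age that had drunk a cocktail of 4 antibiotics (ampicillin, neomycin, metronidazole and vancomycin) for 21 days. The Old group came from untreated mice labelled 24 months old, and the Old-LP group from mice of that age fed Lactobacillus plantarum by gavage on alternate days over 21 days. The mice were female C57BL/6, and per the methods each array held a pool of cells from 3 of them, so the spread between arrays is a spread between pools.

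The family works by sharing chains. Il12a encodes p35 and Il12b encodes p40, which pair to give IL-12, the cytokine by which activated DCs drive T cells and natural killer (NK) cells towards interferon gamma. The p40 chain also pairs with p19, encoded by Il23a, to give IL-23, which sustains T helper 17 cells. Il27 encodes p28, which pairs with the Ebi3 protein to give IL-27, and p35 with Ebi3 gives IL-35. On the responding cell, Il12rb1 encodes the receptor chain shared by IL-12 and IL-23, and Il12rb2 the second chain needed for IL-12. In DCs p40 is usually made in excess, so that the supply of p35 limits how much complete IL-12 is formed.

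Signal differed strongly between the replicates in every group. Slide 1 held replicates A and B of all 4 groups, slide 2 replicate C of Young and Young-Abx, and slide 3 replicate C of Old and Old-LP. Between 61.2% and 66.4% of probes were well above background on A and B arrays, against 37.3% to 46% on C arrays, where the 75th percentile of the signal was 87.8 to 249 instead of 670 to 1190. Values below are log2 signals after quantile normalization. Even after it, the C arrays exceeded A and B by a mean of 1.69 for Il12rb2, 1.26 for the dim Il23a, 1.02 for Ebi3, 0.97 for Il12b, 0.29 for Il12a, 0.15 for Il27 and 0.09 for Il12rb1. Over all probes this shift had a median of 0.15 and an SD of 1.14. Results are therefore given over all 12 arrays and also within slides. Where the replicate letter serves as a block, replicate C counts as 1 batch although its arrays lay on slides 2 and 3. That block thus does not remove a difference between slides 2 and 3. The cells carried the signal of DCs: 12 to 13 of 14 DC markers were well above background on all 3 arrays of each group. Their summed signal ran from 387000 to 474000 over the groups with overlapping ranges. That sum adds unlogged signals, so bright markers such as Cd74 (log2 mean 17.01 in Young) outweigh dim ones such as Zbtb46 (6.11). Of the DC markers 0 were called in any comparison. With the replicate letter as a block Ccl17 (-1.22, limma adjusted p = 0.0194), Cd86 (-0.59, 0.0493) and H2-Ab1 (0.79, 0.0417) passed in Old against Young and Ccl17 in Old-LP against Old (1.30, 0.0189). Transcripts of T and NK cells were also present, with 8 or 9 of the 10 measured markers well above background on all 3 arrays of each group.

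Il12b, Il27, Ebi3, Il12rb1 and Il12rb2 were well above background on all 12 arrays and Il12a on 10, the exceptions being Old C and Old-LP C. Il23a was well above background on 0 of 12 arrays, with log2 signals between 1.69 and 3.46, and no fold change is given for it.

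**Figure D1:**
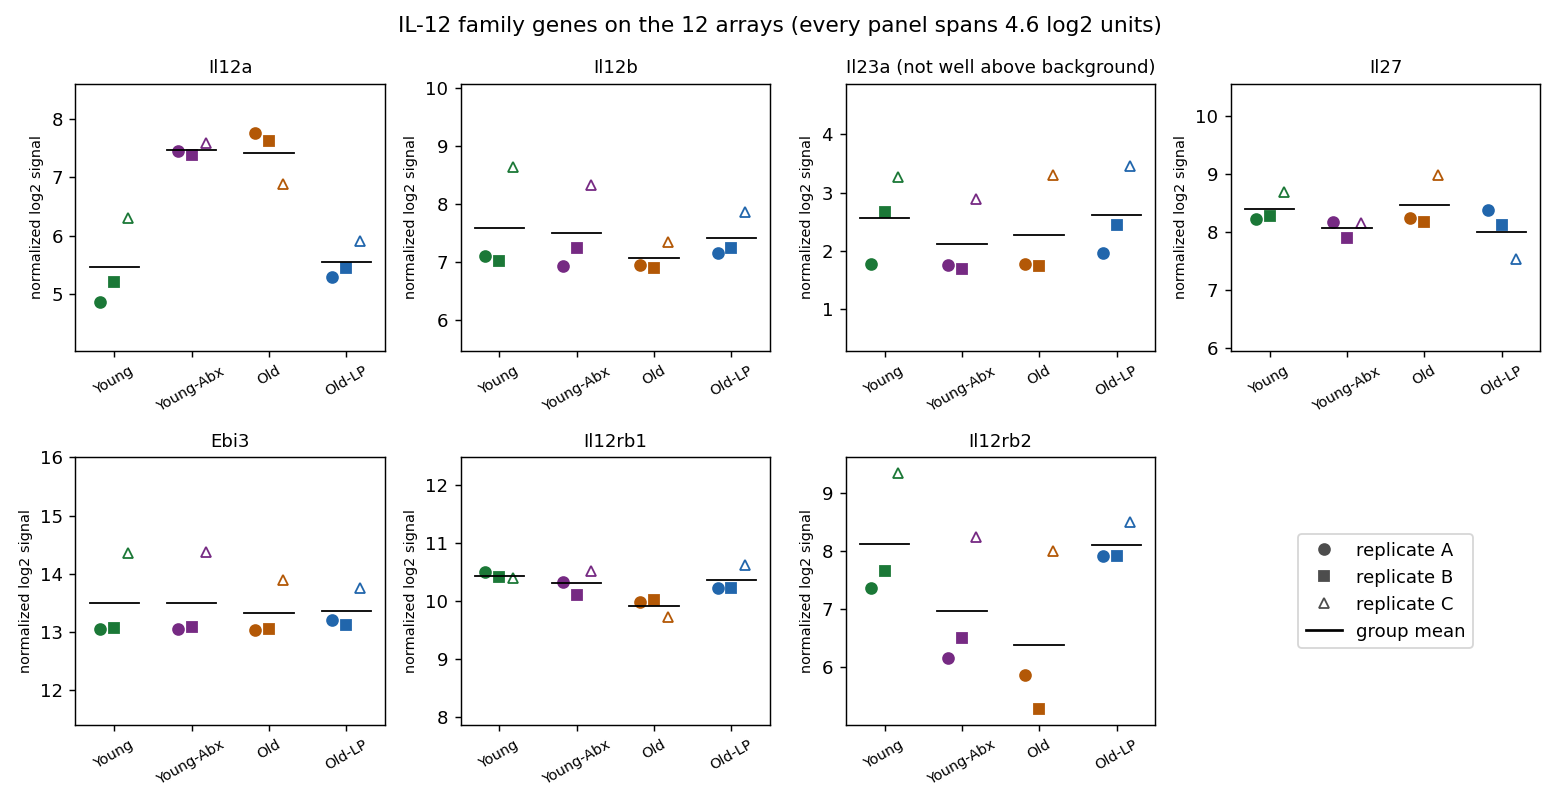
Normalized log2 signal of the 7 genes on each array (vertical axis) by group (horizontal axis), with replicates A, B and C as circles, squares and open triangles and the group mean as a line. Il12a sits near 7.5 in Young-Abx and Old and near 5.5 in Young and Old-LP, while Il12b and Ebi3 differ mainly between replicate C and the other two.

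Il12a, the p35 gene, had the lowest adjusted p of the 7 members in the F test over the 4 groups. In Young its log2 signals were 4.86, 5.20 and 6.30 in replicates A, B and C. In Young-Abx they were 7.46, 7.38 and 7.60. In Old they were 7.77, 7.62 and 6.88, and in Old-LP 5.28, 5.45 and 5.90. Every array of Young-Abx and Old was above every array of Young and Old-LP, and within each of these pairs of groups the ranges overlapped. This includes Old C and Old-LP C, where Il12a was not well above background. Before normalization the signal was 20.2 on Old C and 27.3 on Young C, so the order of those arrays arose with normalization across slides. The group means ± SD (n = 3) were 5.45 ± 0.75 in Young, 7.48 ± 0.11 in Young-Abx, 7.43 ± 0.48 in Old and 5.54 ± 0.32 in Old-LP.

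In Old against Young the log2 fold change of Il12a was 1.97 (SE 0.386, 95% interval 1.12 to 2.83), a 3.93-fold higher signal, with a limma adjusted p of 0.0613 (Benjamini-Hochberg over all 56605 probes). It therefore missed the call, which asked for an adjusted p of at most 0.05 and a log2 fold change of at least 0.5 in size. In Young-Abx against Young the log2 fold change was 2.03 (SE 0.386, limma adjusted p = 0.0791). In Old-LP against Old it was -1.88 (SE 0.386, limma adjusted p = 0.104), and in Old-LP against Young-Abx -1.94 (limma adjusted p = 0.152). Il12a did not separate Old-LP from Young, with a difference of 0.09 and a 95% interval of -0.77 to 0.95, nor Old from Young-Abx, with -0.05 and an interval of -0.91 to 0.80.

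The size of the Il12a difference depended on the replicates that carried it. On slide 1, where all groups lay side by side, the log2 fold change was 2.67 in Old against Young, 2.39 in Young-Abx against Young and -2.33 in Old-LP against Old. On slide 2, Young-Abx C was 1.30 above Young C, and on slide 3, Old-LP C minus Old C was -0.98, both readings of slide 3 being not well above background. Old C was 0.59 above Young C, but those arrays lay on different slides. The direction was thus the same within each slide that held both groups, which for Old against Young was slide 1 alone. With the replicate letter as a block Il12a passed in Old against Young (limma adjusted p = 0.0443), as did 2.18% of all probes, and not in Young-Abx against Young (0.0651) or Old-LP against Old (0.0628). With the slide as a block it passed in all 3, at limma adjusted p-values of 0.0161, 0.0199 and 0.0204 in that order, beside 2.7%, 2.04% and 3.29% of all probes. In the deposited log2 table, which matched spot signals without background subtraction, the log2 fold change in Old against Young was 1.11, and after normexp correction with an offset of 50 it was 1.10.

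Il12b, the p40 gene, did not share the pattern of its partner. Its log2 signals were 7.11, 7.01 and 8.64 in Young, 6.93, 7.24 and 8.32 in Young-Abx, 6.95, 6.90 and 7.35 in Old, and 7.16, 7.24 and 7.86 in Old-LP. All groups overlapped, and the 8 arrays of slide 1 spanned 0.34 log2 units, against 2.91 for Il12a. The log2 fold change was -0.52 in Old against Young (95% interval -1.60 to 0.57), -0.09 in Young-Abx against Young (-1.17 to 1) and 0.35 in Old-LP against Old (-0.73 to 1.44), each with a limma adjusted p of 1.

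The sequences before the starts of Il12a, Il12b and Ebi3 are shown because the arrays of Il12a separated by group without overlap in 4 comparisons and those of Il12b and Ebi3, the genes of its partners, in 0. Between 9.38% and 9.86% of all probes separated so in each of those 4 comparisons, which reuse the same groups. The sequences are the 250 bases upstream of each start listed by RefSeq on GRCm38.p6, and Il12a has 2 starts. Windows were listed for 4 of the 7 genes. Capitals mark the letters matched in a search on both strands for 4 motifs. The κB motif was searched as GGGRNNYYCC, where R is A or G, Y is C or T and N is any base. The others were GAAANNGAAA (a motif of interferon regulatory factors), GAGGAA (a motif of PU.1) and TATATAA. In that order the motifs occurred in 7.25%, 2.98%, 23.3% and 3.04% of the 32841 windows of the same length. Sites that differ from these letters were not searched for.
Il12a, first start, chr3:68690394-68690643 (plus strand): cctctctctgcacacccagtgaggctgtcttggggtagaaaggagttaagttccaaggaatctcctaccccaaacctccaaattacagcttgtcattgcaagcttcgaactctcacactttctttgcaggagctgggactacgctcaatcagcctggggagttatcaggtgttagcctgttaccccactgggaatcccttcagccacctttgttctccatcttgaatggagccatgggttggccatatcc
Il12a, second start, chr3:68691174-68691423 (plus strand): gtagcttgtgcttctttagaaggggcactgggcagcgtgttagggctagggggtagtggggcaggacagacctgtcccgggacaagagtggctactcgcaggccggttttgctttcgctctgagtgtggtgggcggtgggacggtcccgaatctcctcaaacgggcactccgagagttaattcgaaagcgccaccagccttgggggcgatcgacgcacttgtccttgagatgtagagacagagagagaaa
Il12b, chr11:44399813-44400062 (plus strand): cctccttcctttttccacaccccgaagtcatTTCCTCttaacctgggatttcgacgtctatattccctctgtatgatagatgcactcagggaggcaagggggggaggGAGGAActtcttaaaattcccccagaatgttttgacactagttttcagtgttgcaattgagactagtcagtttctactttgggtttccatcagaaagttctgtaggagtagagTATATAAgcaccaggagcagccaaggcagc
Ebi3, chr17:55952373-55952622 (plus strand): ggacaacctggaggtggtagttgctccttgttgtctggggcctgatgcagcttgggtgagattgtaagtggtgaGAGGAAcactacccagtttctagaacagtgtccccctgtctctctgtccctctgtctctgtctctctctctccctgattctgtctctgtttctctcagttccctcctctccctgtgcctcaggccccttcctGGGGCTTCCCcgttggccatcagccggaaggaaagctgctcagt
In Il12b a TATATAA match began 30 bases before the start, and GAGGAA matched once on each strand, without overlap. In Ebi3 a κB match, readable on both strands, began 44 bases before the start, and there was 1 GAGGAA match. The Il12a windows held none of the 4 motifs in these letters, nor did that of Il12rb2. A window without a κB match, such as those of Il12a and Il12b, can still hold a variant of that motif.

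Because 2 chains make 1 cytokine, the difference between the log2 signals of 2 subunit genes was taken within each array. Its level carries the brightness of both probes and was compared only between arrays. For IL-12, Il12a minus Il12b was -2.24, -1.81 and -2.34 in Young, 0.53, 0.14 and -0.73 in Young-Abx, 0.82, 0.72 and -0.46 in Old, and -1.88, -1.79 and -1.96 in Old-LP. Every Young-Abx and Old array lay above every Young and Old-LP array, though Il12a was not well above background on Old C and Old-LP C. The group means differed by 2.49 in Old against Young, 2.11 in Young-Abx against Young and -2.24 in Old-LP against Old, each with p = 0.1 in a two-sided exact permutation test, the smallest that 3 against 3 arrays can give. Il12a minus Ebi3, the pair of IL-35, differed by 2.14, 2.02 and -1.92 in the same comparisons, again without overlap and with an exact permutation p of 0.1. Under normexp or in the deposited table the groups overlapped for Il12a minus Ebi3 in these 3 comparisons (exact permutation p = 0.3). The Il27 minus Ebi3 and Il23a minus Il12b differences stayed within 0.59 in size in every comparison, with exact permutation p-values of 0.2 or more, and the second pair rests on a gene at background.

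**Figure D2:**
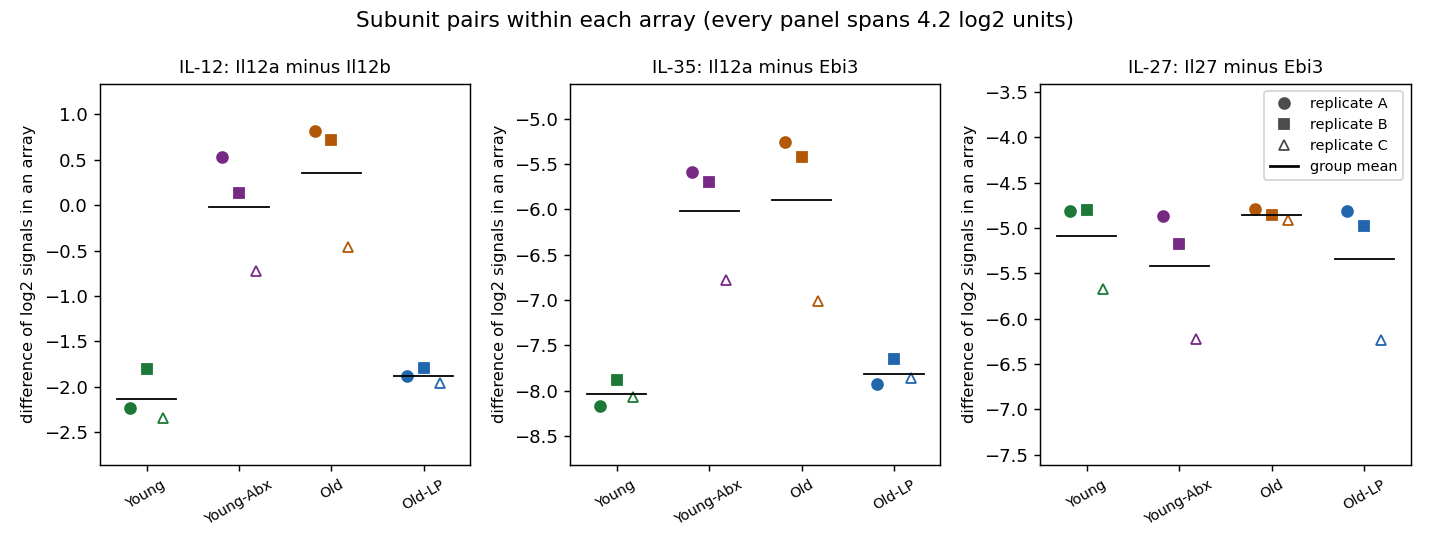
Difference between the log2 signals of 2 subunit genes on each array (vertical axis) for IL-12, IL-35 and IL-27, by group (horizontal axis). Circles, squares and open triangles are replicates A, B and C and lines are group means; the IL-12 pair is between -2.34 and -1.79 on every Young and Old-LP array and between -0.73 and 0.82 on every Young-Abx and Old array.

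Il27 and Ebi3, the genes of the 2 chains of IL-27, varied little. Il27 was 8.22, 8.28 and 8.69 in Young, 8.18, 7.90 and 8.15 in Young-Abx, 8.24, 8.18 and 8.98 in Old, and 8.38, 8.12 and 7.53 in Old-LP. Its Young-Abx arrays were all just below its Young arrays, with a log2 fold change of -0.32 (95% interval -1 to 0.36, limma adjusted p = 1). In Old-LP against Old the value was -0.45 (-1.13 to 0.22) and came from the C arrays, which differed by -1.45, while A and B differed by 0.04. Ebi3 was 13.04, 13.07 and 14.36 in Young, 13.05, 13.08 and 14.37 in Young-Abx, 13.03, 13.04 and 13.89 in Old, and 13.20, 13.11 and 13.76 in Old-LP. The slide 1 arrays of Ebi3 spanned 0.17 log2 units over the 4 groups, and its log2 fold changes in the 6 comparisons ran from -0.18 to 0.04. With all 12 arrays the 95% interval in Old against Young was -1.24 to 0.89.

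Il12rb2, the second receptor chain needed for IL-12, was lower on slide 1 in the groups where Il12a was higher. Its log2 signals were 7.37, 7.66 and 9.35 in Young, 6.17, 6.51 and 8.24 in Young-Abx, 5.87, 5.28 and 8 in Old, and 7.91, 7.91 and 8.50 in Old-LP. Replicate C was the highest array of every group, so the groups overlapped, but among replicates A and B all Old and Young-Abx arrays were below all Young and Old-LP arrays. Over all 12 arrays the log2 fold change was -1.74 in Old against Young (SE 0.793, limma adjusted p = 0.845), -1.15 in Young-Abx against Young (adjusted p = 1) and 1.72 in Old-LP against Old (adjusted p = 0.88).

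Within slides the differences of Il12rb2 had the same directions, with Old and Young side by side on slide 1 alone. On slide 1 the differences were -1.94, -1.17 and 2.33. They passed the call there with limma adjusted p-values of 0.00584, 0.0438 and 0.00345, beside 9.17%, 6.14% and 8.24% of all probes called on those arrays. Each group had only replicates A and B on slide 1, so these p-values leave out the spread that replicate C adds. Young-Abx C minus Young C was -1.11 on slide 2, and Old-LP C was 0.50 above Old C on slide 3. On slide 1 Old-LP also exceeded Young-Abx by 1.57 (limma adjusted p = 0.0213, with 4.81% of all probes called). With the slide as a block Il12rb2 passed in Old-LP against Old (limma adjusted p = 0.0445) and missed in Old against Young (0.0918). With the replicate letter as a block it missed in both, at 0.0782 and 0.0633.

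Il12rb1, the chain shared by the receptors for IL-12 and IL-23, was lowest in Old. Its log2 signals were 10.50, 10.41 and 10.40 in Young, 10.32, 10.11 and 10.51 in Young-Abx, 9.98, 10.02 and 9.72 in Old, and 10.23, 10.22 and 10.62 in Old-LP. All 3 Old arrays lay below all 9 others. The log2 fold change was -0.53 in Old against Young (SE 0.213, 95% interval -1 to -0.06, limma adjusted p = 0.692) and 0.45 in Old-LP against Old (limma adjusted p = 0.898). Young-Abx differed from Young by -0.13 (interval -0.60 to 0.35).

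**Figure D3:**
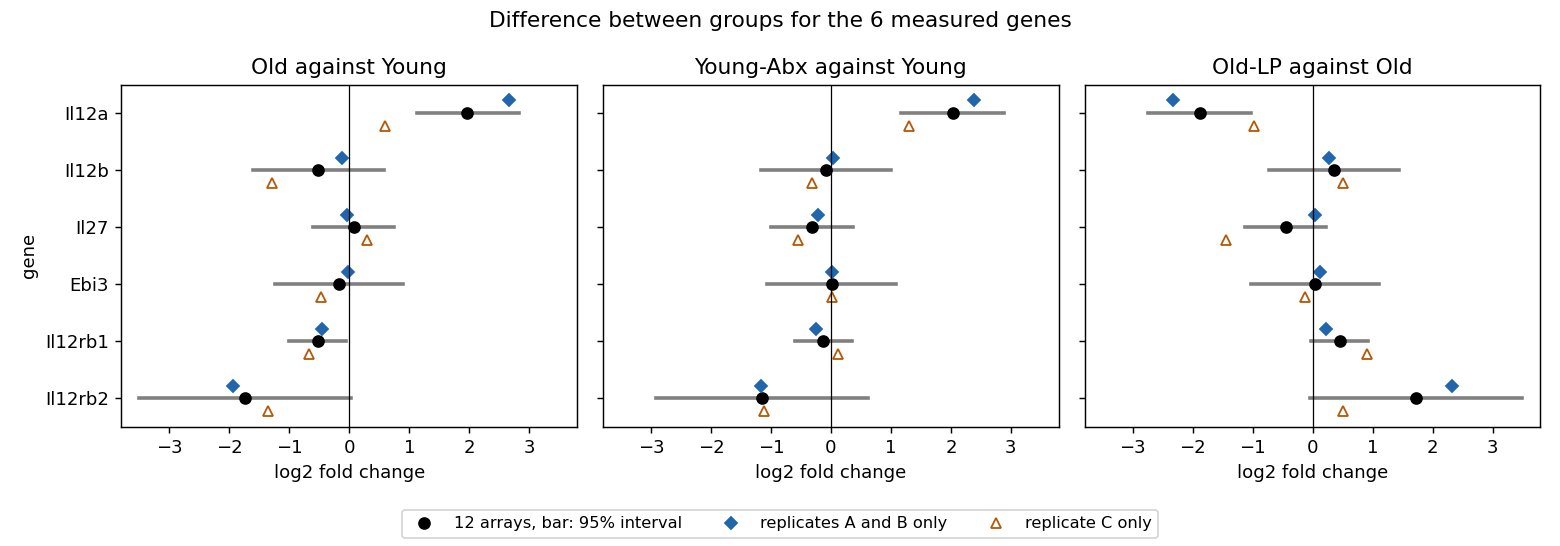
Log2 fold change (horizontal axis) of the 6 genes above background in 3 comparisons. Black points with bars are all 12 arrays with 95% intervals, diamonds are replicates A and B and open triangles replicate C. In Old against Young the triangles compare arrays on different slides, and in the other panels arrays on the same slide. The bars of Il12a exclude 0 in each panel, as does that of Il12rb1 in Old against Young, and those of the other genes include 0.

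Both receptor genes are known from T and NK cells, and the summed markers of those cells were lower on the Old arrays. The summed signal of the 10 measured T and NK cell markers was 17200, 17900 and 10700 on Old A, B and C, below all arrays of Young (29400 to 43900), Young-Abx (24300 to 41300) and Old-LP (27100 to 33000). Among them Cd3e, a chain of the T cell receptor complex, had a log2 fold change of -1.10 in Old against Young (limma adjusted p = 0.294), and Nkg7, a cytotoxic granule gene, of -1.15 (limma adjusted p = 0.445). No marker of the list passed the call in any comparison. With the p left unadjusted, 5 of 10 were lower in Old against Young, and in Old-LP against Old 7 were higher and 1 lower. The 1 lower was Ncr1, an NK cell receptor gene well above background on 4 arrays (-1.83). In Old against Young it also went the other way, at 0.99, and Prf1, the perforin gene, differed by -0.16. The sum adds unlogged signals, so bright markers such as Cd3d (log2 mean 13.09 in Young) outweigh Ncr1 (3.34) and Prf1 (7.56). Il12rb1 was lowest on the 3 arrays with the least summed T and NK cell signal. Il12rb2 was lowest on Old A and B among the A and B arrays, and on Old C (8) among the C arrays, where the others had 8.24 to 9.35. In Young-Abx against Young Il12rb2 differed by -1.15, while the markers had a median log2 fold change of -0.15 and 0 passed at the unadjusted p. On A and B the T and NK cell sums were 31100 and 29400 in Young, 25000 and 24300 in Young-Abx and 28600 and 27100 in Old-LP. Among those arrays Il12rb2 was highest in Old-LP. The part of these cells in the receptor values was not tested, and in such bulk RNA fewer cells of a type and less RNA per cell cannot be told apart. The summed markers of macrophages (162000 to 240000) overlapped between all groups. On slide 1 other marker sums were lowest in Old, as those of T and NK cells were. The B cell markers summed to 3100 and 3290 on Old A and B and 3670 to 6500 on the other A and B arrays, but to 16600 on Old C, the highest of all 12. The mast cell and basophil markers summed to 15100 and 13500 on Old A and B, against 19300 to 26600, and to 61700 on Old C, again the highest. The plasmacytoid DC markers (4880 to 17400 in Old) overlapped between Old and every other group. Of these 4 lists 0 genes were called. With the replicate letter as a block Fcgr1, a macrophage Fc receptor, passed in Old against Young (limma adjusted p = 0.0139) and Old-LP against Old (0.0442), and Ms4a2, a mast cell Fc receptor chain, in Old-LP against Old (0.0293). Camp, an antimicrobial peptide gene of neutrophil precursors, did move with Il12a: it rose in Old against Young (2.71, SE 0.426, limma adjusted p = 0.0208) and in Young-Abx against Young (2.47, limma adjusted p = 0.0498) and was -2.03 in Old-LP against Old (limma adjusted p = 0.113; 0.0119 with the replicate letter as a block). Together, 9 neutrophil and precursor markers had another order on slide 1, with sums of 8460 and 8240 in Old, 12500 and 12000 in Young-Abx, 21700 and 20000 in Young and 24500 and 25100 in Old-LP, which is the order of Il12rb2 there. On Old C they summed to 55500, the highest of the 12 arrays, and the part of these cells in the family's values was not tested.

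**Figure D4:**
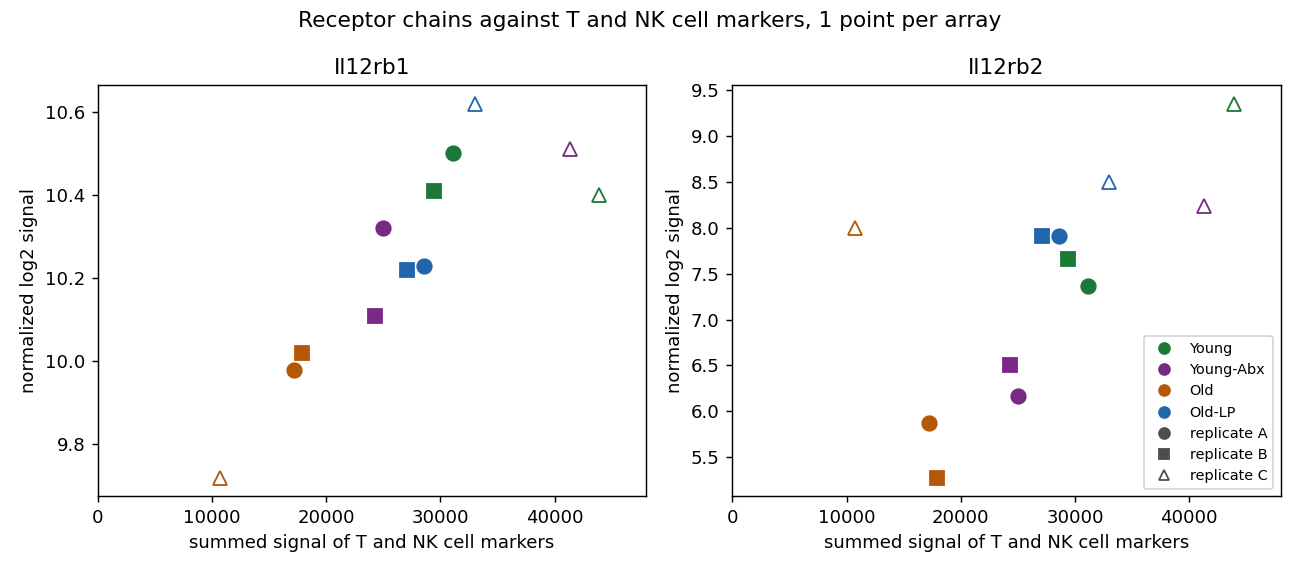
Normalized log2 signal of Il12rb1 and Il12rb2 (vertical axis) against the summed signal of 10 T and NK cell markers (horizontal axis), 1 point per array, coloured by group and shaped by replicate. The 3 Old arrays have the lowest marker sums and the lowest Il12rb1; Il12rb2 is highest on the C array of each group and is lowest in Old both among the A and B arrays and among the C arrays.

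Counted over the family, 0 of 7 genes passed the call in any of the 6 comparisons. For Old against Young the share of all probes called was 0.62%, for Young-Abx against Young 0.344%, for Old-LP against Old 0.348%, for Old-LP against Young 0%, for Old against Young-Abx 0.00177% and for Old-LP against Young-Abx 0.163%. In the F test over the 4 groups 0 of 7 genes passed, with Il12a the nearest at a limma adjusted p of 0.0521, against 0.505% of all probes. With the replicate letter as a block its F test gave 0.0496.

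With the p left unadjusted (at most 0.05, and the fold as before), the counts were larger. Il12a and Il12rb1 reached it in Old against Young (6% of all probes did), and Il12a alone in Young-Abx against Young (3.85%), Old-LP against Old (5.79%) and Old-LP against Young-Abx (3.3%). None of the 7 did in Old-LP against Young (1.12%) or Old against Young-Abx (1.53%). Arrays of the compared groups did not overlap for Il12a and Il12rb1 in Old against Young (9.65% of all probes), for Il12a and Il27 in Young-Abx against Young (9.86%), and for Il12a and Il12rb1 in Old-LP against Old (9.38%). The same was true of Il12rb1 in Old against Young-Abx (5.31%) and Il12a in Old-LP against Young-Abx (9.51%), and of no member in Old-LP against Young (4.72%).

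The genes through which these cytokines signal did not pass the call. Of 13 genes for other receptor chains, Janus kinases, STAT factors and their inhibitors, 0 were called in any of the 6 comparisons, with median log2 fold changes of -0.16 in Old against Young and 0.18 in Old-LP against Old. Stat4, the transcription factor activated by IL-12, was 11.94, 11.89 and 11.60 in Young and 11.20, 11.27 and 10.89 in Old, and 11.82, 11.77 and 11.93 in Old-LP. Its log2 fold change was -0.69 in Old against Young (limma adjusted p = 0.39) and 0.72 in Old-LP against Old (0.396). Il27ra, the IL-27 receptor chain, was lower by a log2 fold change of -0.76 in Old against Young (SE 0.217, limma adjusted p = 0.294). Il6st, which encodes gp130 of the same receptor, differed by -0.18, and Il23r, well above background on 8 arrays, by -0.16.

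The transcription factors that act on the subunit genes, and the LPS sensing genes, gave little that set the groups apart. Of 20 such factors 0 were called in the 6 comparisons and 0 passed with the p left unadjusted in the 3 main ones. In Old against Young the log2 fold change was 0.10 for Rel, an NF-κB subunit, -0.34 for Irf1 and -0.10 for Irf8, both interferon regulatory factors, -0.29 for Batf3, a factor of the cross-presenting DC lineage, and -0.02 for Nfil3, a repressor of Il12b. With the replicate letter as a block Fos, a part of AP-1, passed in Old against Young (1.72, limma adjusted p = 0.0151, against 1 without the block). Of 14 LPS sensing genes, from Tlr4 to Nfkbia, 0 were called, with a median of -0.09 in Old against Young.

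Downstream of IL-12, Gzmb, which encodes granzyme B of cytotoxic cells, followed the direction of Il12rb2. It was 13.38, 13.37 and 14.69 in Young, 12.37, 12.48 and 14.02 in Young-Abx, 11.33, 11.19 and 12.70 in Old, and 13.54, 13.61 and 13.97 in Old-LP. Its log2 fold change was -2.08 in Old against Young (SE 0.563, limma adjusted p = 0.252) and 1.97 in Old-LP against Old (0.351), and both passed with the replicate letter as a block (0.0066 and 0.0114). Tbx21, which encodes T-bet, had values of -1.19 and 1.14 (limma adjusted p = 0.761 and 0.841). Ifng, encoding interferon gamma, had -0.60 and 0.69, and Il10, well above background on 10 arrays, had 1.93 and -0.81, all with a limma adjusted p of 1. For Il10 the value rested on Old C, at 9.05, beside 4.89 and 4.21 on Old A and B. Of the 12 genes of this list 0 were called without the block.

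Among 13 measured relatives of the wider IL-6 and IL-12 superfamily, Lifr, a receptor chain for leukaemia inhibitory factor, was the 1 gene called. It was 8.68, 8.56 and 7.83 in Young, 7.28, 7.16 and 6.73 in Young-Abx, 6.44, 6.05 and 6.58 in Old, and 8.67, 8.73 and 7.94 in Old-LP. Lifr fell in Old against Young (log2 fold change -2.00, SE 0.322, limma adjusted p = 0.0234) and rose in Old-LP against Old (2.09, limma adjusted p = 0.0304). Its dimmer probes gave -2.06 and -2.03 in Old against Young and were not called. Osmr, the oncostatin M receptor chain, had the opposite direction at its brighter probe (2.89, limma adjusted p = 0.0625; 0.0103 with the replicate letter as a block), but that probe was well above background on 4 arrays and a dimmer probe gave -1.69.

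Genes whose pattern was most like each member were taken from the 10669 genes well above background on all 12 arrays, the member itself left out, by Pearson r over the 12 arrays, which share the shift of replicate C. Being the highest among so many genes, the r values are high in part through that choice. For Il12a, not well above background on Old C and Old-LP C, the genes were Serpina3b (0.987), Dclk3 (0.983) and Gp6 (0.980). After each letter's mean was subtracted they were Slc6a4 (0.990), Serpina3b (0.990) and Gpr162 (0.988). For Il12b they were Cd28 (0.975), Ift80 and Golph3l (both 0.972), and after subtraction Zfp120 (0.968), Prorsd1 (0.954) and P2ry13 (0.949). For Il27 they were Aldh3a1 (0.971), Ckmt1 (0.966) and Tmem215 (0.964), and after subtraction Mapk15 (0.989), A730043L09Rik (0.987) and Gm36556 (0.981).

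The other members were matched as follows. For Ebi3 the genes were Ccdc82 and Cbfb (both 0.989) and D030056L22Rik (0.988), and after subtraction Cd48 (0.956), Ifitm10 and Ptges (both 0.953). For Il12rb1 they were Dapk2 (0.956), Tbx21 and Zfp53 (both 0.943), Tbx21 being a factor of T helper 1 and NK cells, and after subtraction H2ac10 (0.975), H2ac20 (0.971) and Abcb9 (0.970). For Il12rb2 they were Kmo (0.986), E230016K23Rik (0.984) and Icosl (0.982), and after subtraction Eps8 (0.992), Sdhaf2 (0.981) and Eaf2 (0.980). For Il23a, whose values lie at background, they were Zranb1 (0.963), Ddx47 (0.961) and Mdh2 (0.959), and after subtraction Commd9 (0.874), Itpk1 (0.867) and Prrg2 (0.859).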

How the data were processed

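RNA from 12 DC pools was hybridised to Agilent 8x60K mouse arrays. Per the file headers, Agilent Feature Extraction 12.1.1.1 read the spots and the array annotation uses mm9, and the submitters' processing notes name version 10.5 of that program and limma. The deposited scanner files hold processed and median spot intensity, background, and flags for background, saturation and outliers, and the deposited log2 table holds values for 46302 probes, with column medians of 7.07 to 7.10. These matched log2 median spot signals after quantile normalization (lowest Pearson r over the 12 arrays 1, at 4 digits).

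Here 59305 spots that were not controls were used. Processed signals were put on the log2 scale with 1068 outlier readings left out, quantile normalized, averaged over the spots of a probe and tested with limma 3.58.1 in R 4.3.3: lmFit with 1 mean per group over all 12 arrays, eBayes, and Benjamini-Hochberg adjustment over 56605 probes. A call needed an adjusted p of at most 0.05 and a log2 fold change of at least 0.5 in size. Genes were named by RefSeq accession, and of several probes of a gene the brightest was used. Dim signals after background subtraction vary widely on the log2 scale, and precision is limited by how few arrays there are. The code was tested on simulated data.

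All 7 members are named; genes of the pathway lists are named where called, with 10 further genes of interest always given, other genes of these lists being named after their values were seen. Members and lists were chosen with earlier results of these data known. Replicate letters came from the sample titles. Deviations from the group means correlated at 0.415 to 0.711 between groups for the same letter, at 0.449 to 0.57 for A with B, and at -0.659 to -0.466 for C with A or B. Every same-letter correlation met the limit of 0.1 set for using the letter as a block. Every correlation of A with B met it too, so meeting it does not show pairing by letter. The letters separate C from A and B, while A minus B correlated between groups at -0.125 to 0.137 only, so A and B are not shown to be paired. Scan times split the arrays as the slides do. Subunit pairs were compared with two-sided exact permutation tests. The alternatives tried were another scaling, background correction, the deposited table, a filter on dim probes, blocks, subsets of the arrays, spot and probe rules, array weights, an intensity trend and leaving out each array.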

Additional observations from a re-analysis of the deposited data

How the results depend on the processing

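The count of family genes called, 0 in each comparison and in the F test, grew under several settings, and the genes involved were Il12a and, where the count was 2, Il12a with Il12rb2 (Il12a with Il12rb1 for the unadjusted p). It was 1 in Old against Young, Young-Abx against Young, Old-LP against Old and the F test under normexp and under the filter on dim probes, which left 25581 probes to adjust over and left out Il23a. It was 1 in Old against Young and the F test in the deposited table and with the replicate letter as a block, which separates C from A and B and changed no other call of a family gene. It was 1 in the F test with probes of a gene averaged. With the slide as a block it was 1 in Old against Young, Young-Abx against Young and the F test and 2 in Old-LP against Old. It was 2 in these 3 comparisons, in Old-LP against Young-Abx and in the F test with slide 1 alone and with array weights. At the unadjusted p it was 2 in Old against Young and 1 in Young-Abx against Young, Old-LP against Old and Old-LP against Young-Abx. Leaving out 1 array gave 0 to 1 in Old against Young, Young-Abx against Young, Old-LP against Old and the F test: Il12a passed without Young C (adjusted p of 0.0171, 0.0227 and 0.0356 in the 3 comparisons) and without Old C (0.0345 and 0.041 in the first 2). In Old-LP against Young and Old against Young-Abx the count stayed at 0. The share of all probes called in Old against Young grew as well, from 0.62% to 2.18% with the letter block. It was 2.7% with the slide block, 6% at the unadjusted p and 9.17% on slide 1 alone. That share was not counted for normexp, the dim filter, the deposited table, averaged probes, array weights or left-out arrays. Growth of the family count under those settings therefore cannot be set against it.

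The subunit differences shrank under normexp and in the deposited table. Il12a minus Il12b was 1.38 and 1.41 in Old against Young, 1.11 and 1.12 in Young-Abx against Young, -1.22 and -1.28 in Old-LP against Old, and -0.95 and -0.99 in Old-LP against Young-Abx. Il12a minus Ebi3 was 1.29 under both in Old against Young, then 1.17 and 1.19, -1.09 and -1.11, and -0.97 and -1.02 in the other 3. Il23a minus Il12b in Old-LP against Young-Abx was 0.14 and 0.15, from 0.59. The cause was not tested.

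Of 1002 alternative values of single members, 33 were calls, 24 for Il12a and 9 for Il12rb2, all in the direction reported, and 84 values, none of them a call, had the other sign. Over the alternatives the log2 fold change of Il12a was 1.10 to 2.67 in Old against Young (adjusted p from 3.25e-06 to 0.507), that of Il12rb2 -2.55 to -1.13 and that of Il12rb1 -0.58 to -0.44. The lowest of these adjusted p-values came with array weights. With them the Il12a values in the 3 main comparisons were 2.67, 2.41 and -2.32, near the 2.67, 2.39 and -2.33 of slide 1 alone. Array weights thus add little to slide 1 alone for Il12a. The dim C arrays limit what can be said of Il12a, Il12b and Il12rb2, and no level can be given for Il23a.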
